A study of Mus musculus with 28 samples.

Results

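The complement genes described here are 9 members that were chosen by symbol from the table of gene values: the C1q chains C1qa, C1qb and C1qc, the central components C4b and C3, the alternative pathway genes Cfb and Cfp, and the anaphylatoxin receptor genes C3ar1 and C5ar1. They are 9 of the 40021 genes listed. RPKM scales a gene's reads to its transcript length and to the library's total, and a gene was tested if it reached an RPKM of 1 or more in 5 or more of the 28 retinas. Of the members, 8 passed this filter and C3 did not, since it reached an RPKM of 1 in 3 retinas. In all, 13164 genes were tested.

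Complement is a cascade of plasma and tissue proteins that tags microbes, debris and synapses for removal. In the classical pathway C1q binds a target and its partner proteases cleave C4 and C2, in the alternative pathway factor B (Cfb) forms the convertase and properdin (Cfp) stabilises it, and both routes meet at C3. Cleavage of C3 and C5 frees the small peptides C3a and C5a, which myeloid cells sense through the receptors encoded by C3ar1 and C5ar1. Microglia are known as the main source of C1q in the central nervous system.

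Microglia were sorted as live tdTomatohi DRAQ7- cells from single retinas of male heterozygous Cx3cr1CreER:R26-tdTomato mice on a C57BL/6 background, in which Cre under control of Cx3cr1, the fractalkine receptor gene, turns on the red reporter once tamoxifen is given. All groups, the naïve group included, carried this allele pair and, per the study's methods, received tamoxifen at the eye. In endotoxin-induced uveitis (EIU), lipopolysaccharide (LPS), a bacterial endotoxin, was injected into the vitreous, and 6 retinas were taken 4 h later, 5 after 18 h and 7 after 2 weeks, beside 10 naïve retinas from mice that were not injected. Injection and LPS therefore cannot be told apart. The retinas came from 2 experiments: in time order from naïve, experiment 1 held 6, 3, 4 and 4 retinas and experiment 2 held 4, 3, 1 and 3. The labels give the eye, left or right, but do not say which retinas share a mouse, so p-values measure the spread between these retinas.

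The number of alignments per retina ranged from 7510000 to 19700000. Between 6552 and 11825 genes were detected per retina, counted as an RPKM of 1 or more, and 7 retinas had fewer than 9000 such genes (6552 to 8562), against 9331 to 11825 in the other 21. These 7 all belonged to experiment 1: 4 were naïve, and 1 came from each of the 4 h, 18 h and 2-week groups. The summed RPKM of 10 microglial markers had a naïve median of 9365, and the 4 h, 18 h and 2-week medians were 4775, 4146 and 10080. Of 9 neutrophil markers, Ly6g, Mpo, Ngp, Retnlg and Cxcr2 were under an RPKM of 1 in every retina, and the summed RPKM of the 9 reached 17.1 at 18 h and at most 0.547 in the other groups. The 8 lymphocyte markers summed to at most 0.907 outside the 18 h group and to 10.7 to 86.5 within it, mostly from Nkg7 and Trac. The 8 rod photoreceptor markers were present in all groups, with a summed RPKM of 662 to 5485.

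In the single limma fit of the 4 groups, 2 of the 8 members tested rose at 4 h, C3ar1 and C5ar1, where 3.68% of all genes tested rose. At 18 h 2 members rose, C3ar1 and Cfb, against a background of 2.84%. Cfb met the filter only with the 18 h retinas counted, so its results with 18 h, here and below, are not independent of the filter. At 2 weeks no member passed the test, none was called in a linear model of untransformed RPKM, and 0.00760% of all genes passed. None of the members had an unadjusted limma p under 0.05, and 378 of the 13164 genes did. A change passed with a Benjamini-Hochberg adjusted p of at most 0.05 and a difference of at least 2-fold on log2(RPKM + 1). The median difference of the 8 members from naïve, on that log2 scale, was 0.50, 0.93 and 0.39 in time order, against -0.11, -0.08 and 0.07 over all genes tested. Of the 8 members, 6, 7 and 6 had positive differences at these times, whether or not they passed the test, beside 5705, 5943 and 7554 of the 13164 genes. C1q chains, which varied together over the retinas (Pearson r of 0.91 to 0.96), are among these members. All 3 chains had negative differences at 4 h without the 7 retinas with fewer than 9000 genes. In bulk samples, fewer cells that express a gene and less RNA per cell cannot be told apart.

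**Figure D1:**
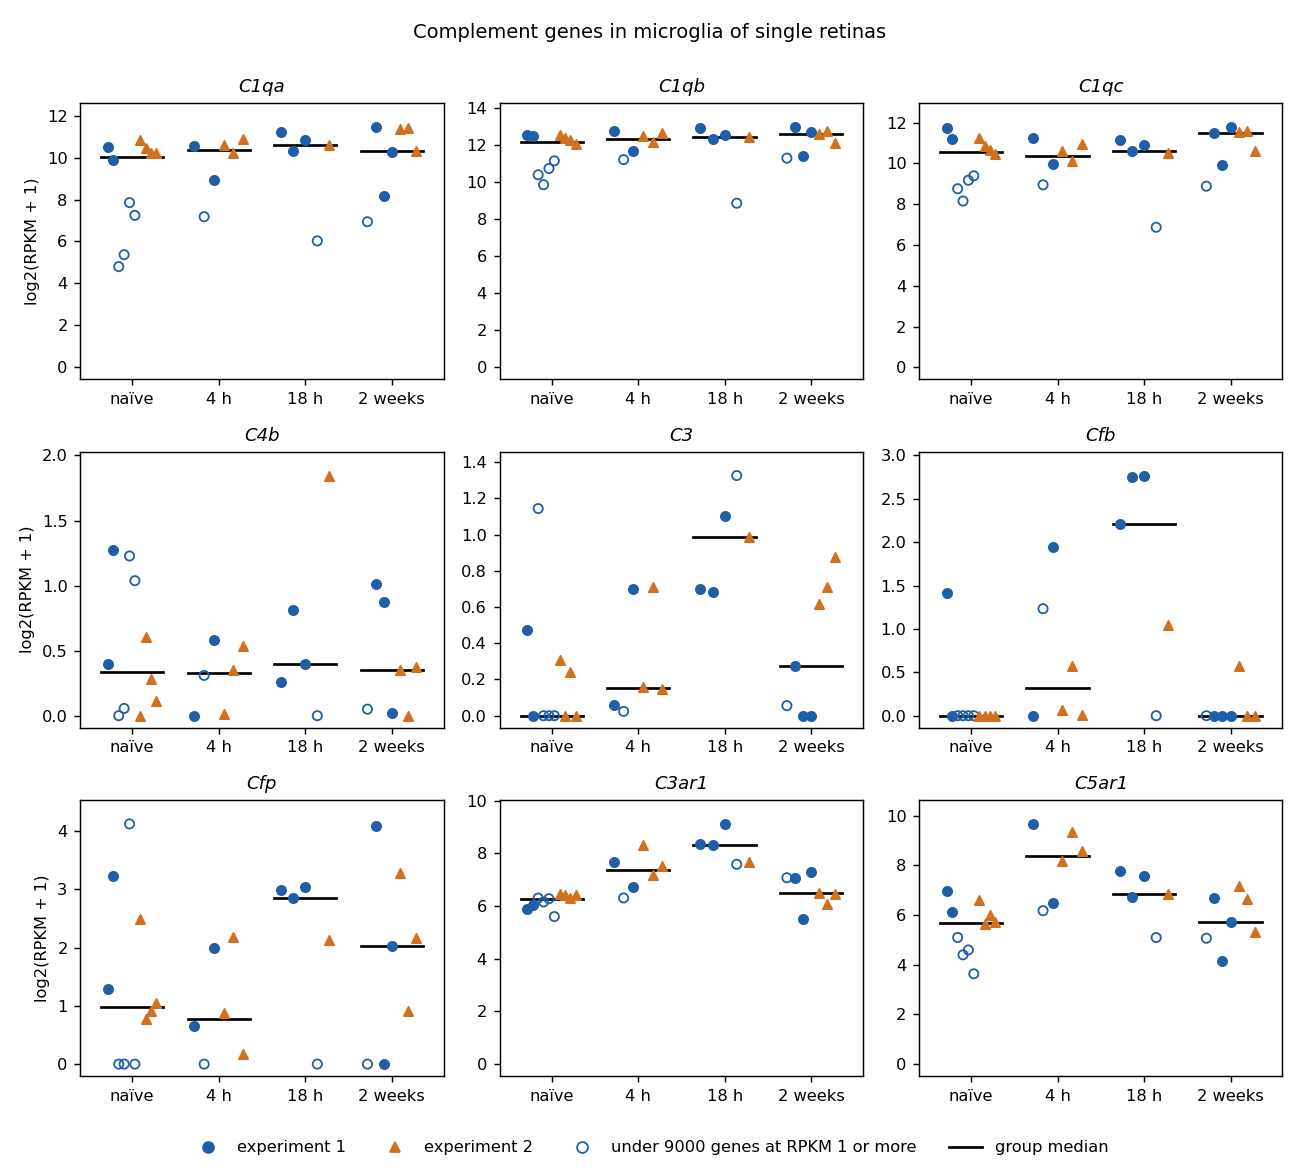
Expression of the 9 complement genes by retina. Each point is 1 retina, the vertical axes show log2(RPKM + 1) with a scale of their own for each gene, the horizontal axes show the 4 groups, the bars are group medians, circles and triangles are experiments 1 and 2, and open points are the 7 retinas with fewer than 9000 genes detected. All 5 C3ar1 values at 18 h lay above all 10 naïve values, C5ar1 was highest at 4 h, and the open points were the lowest of the C1q chains.

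**Figure D2:**
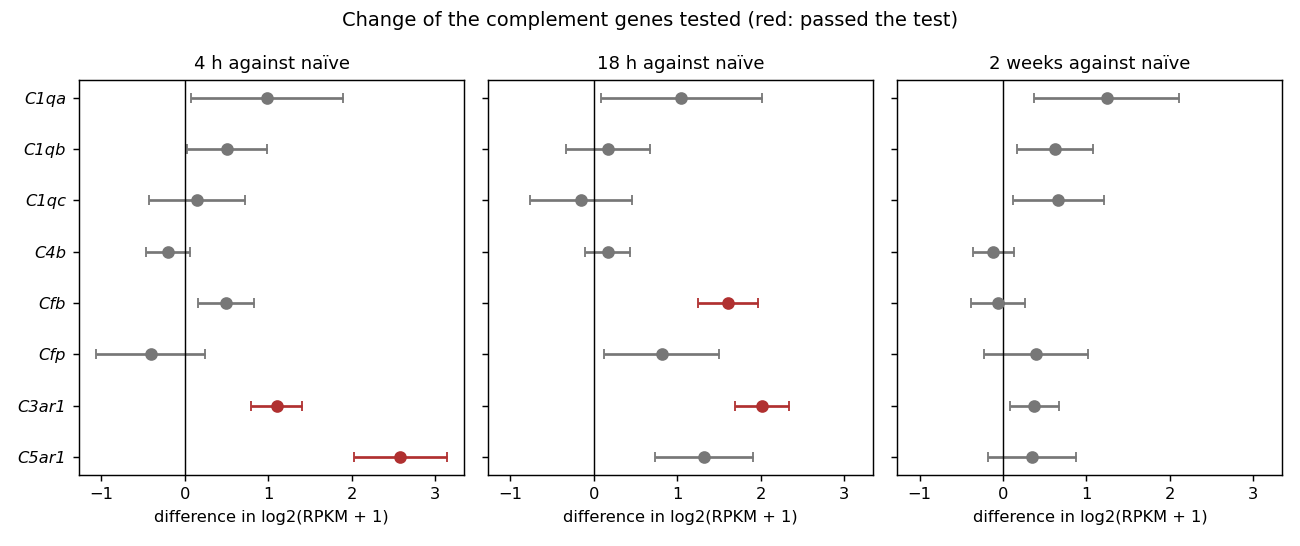
Differences from naïve retinas for the 8 members tested, with 1 panel per time point. Points are differences in log2(RPKM + 1) from limma, bars are standard errors, and red marks those that passed the test: C3ar1 and C5ar1 at 4 h, C3ar1 and Cfb at 18 h, and no member in the 2-week panel.

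C3ar1, which encodes the receptor for C3a, lies on the minus strand of chromosome 6 (GRCm38, 122847138 to 122856161), and was the member that passed the test at both early time points. Its RPKM in naïve retinas lay between 47.4 and 86.1 with a median of 76.8. At 4 h the lowest value was 77.9, the median 165 and the highest 315, and 5 of 6 retinas lay above all naïve retinas. At 18 h the 5 retinas had an RPKM of 322, 314, 552, 190.3 and 202. All of these were above the highest naïve retina, whereas the 2-week values of 44.1 to 153, with a median of 88.4, overlapped with naïve, as 4 of 7 lay above and 1 lay below all naïve retinas.

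The difference of C3ar1 from naïve was 1.10 at 4 h (SE 0.30, limma adjusted p = 0.0166) and 2.02 at 18 h (SE 0.32, adjusted p = 1.2e-04) on the log2(RPKM + 1) scale. From 18 h to 2 weeks it fell by 1.64 (SE 0.34, adjusted p = 0.0050), and at 2 weeks it differed from naïve by 0.38 (SE 0.29, adjusted p = 1.00). The rise at 4 h was the less stable of these: it lost the call without 4 h retina 1 (0.051) or 4 h retina 4 (0.071), as limma adjusted p. Within experiment 1 alone the differences were 0.85 at 4 h (limma adjusted p = 0.48) and 2.29 at 18 h (0.0071), and within experiment 2 alone they were 1.28 (0.0062) and 1.27 (0.13), where 18 h had 1 retina. The fall from 18 h to 2 weeks was 1.60 on the log2 scale within experiment 1 (adjusted p = 0.19, limma) and 1.33 within experiment 2 (0.11).

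C5ar1, which encodes the main signalling receptor for C5a, lies on chromosome 7 (16246743 to 16259540, minus strand). Its naïve RPKM ranged from 11.4 to 126 with a median of 50.5. At 4 h it ranged from 71.3 to 812 with a median of 332, and 4 of 6 retinas lay above all naïve retinas. At 18 h the values were 220.4, 106, 187, 33.2 and 113, of which 2 exceeded every naïve retina. At 2 weeks they ranged from 16.9 to 144 with a median of 52.4 and overlapped broadly with naïve.

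C5ar1 had the largest difference of the members at 4 h, 2.59 (SE 0.55, limma adjusted p = 0.0018), and the mean RPKM was 54.3 ± 36.0 (SD, n = 10) in naïve retinas and 380.5 ± 299 (SD, n = 6) at 4 h. At 18 h the difference was 1.32 (SE 0.59) with an adjusted p of 0.22 from limma, and at 2 weeks it was 0.35 (SE 0.53, adjusted p = 1.00). The 18 h retinas did not pass the test against 4 h either, with a difference of -1.26 (SE 0.65, adjusted p = 0.34). Within experiment 1 the 4 h difference was 2.31 and did not pass (limma adjusted p = 0.18), and within experiment 2 it was 2.69 and passed (0.0020). The 7 retinas with few genes detected had C5ar1 values of 11.4 to 71.3. Without them the difference at 4 h was 2.27 (adjusted p = 0.0030, limma), and C3ar1 stood at 1.23 (0.0090).

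The bases before the RefSeq start sites of C3ar1 and C5ar1, the receptor genes that rose, are shown beside those of C1qb, the most abundant member, which passed no test. RefSeq windows on GRCm38.p6 were matched for 6 of 9 members, C1qb, C1qc, C3, Cfp, C3ar1 and C5ar1. The 3 sequences are given 5′ to 3′ on the minus strand, each as the longest stretch of its window without GENCODE exons. They are chr6:122856162-122856407 for C3ar1, chr7:16259339-16259512 for C5ar1 and chr4:136886201-136886450 for C1qb. Capitals mark matches to the motifs searched on both strands.
C3ar1: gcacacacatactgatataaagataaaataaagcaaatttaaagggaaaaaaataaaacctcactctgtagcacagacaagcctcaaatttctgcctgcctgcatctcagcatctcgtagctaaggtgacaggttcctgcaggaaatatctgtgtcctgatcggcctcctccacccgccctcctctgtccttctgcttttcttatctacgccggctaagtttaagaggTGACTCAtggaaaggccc
C5ar1: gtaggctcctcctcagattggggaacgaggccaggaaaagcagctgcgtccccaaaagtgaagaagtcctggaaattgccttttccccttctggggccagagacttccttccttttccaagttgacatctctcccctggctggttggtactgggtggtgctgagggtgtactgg
C1qb: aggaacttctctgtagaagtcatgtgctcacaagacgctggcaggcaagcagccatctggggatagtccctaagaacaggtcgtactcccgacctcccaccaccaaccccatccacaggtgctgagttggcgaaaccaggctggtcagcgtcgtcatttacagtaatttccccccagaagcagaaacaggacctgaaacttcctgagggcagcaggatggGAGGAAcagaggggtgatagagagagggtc

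The capitals in C3ar1 match TGANTCA, an AP-1 motif that reads alike on both strands, 22 to 16 bases before the start site. AP-1 is a factor of the Fos and Jun families. This motif occurred in 6.75% of the 32851 promoter windows, taken as the 250 bases before each start. The capitals in C1qb match GAGGAA, the core of motifs bound by PU.1, a myeloid factor, 30 to 25 bases before the start, and 23.3% of windows held it. C1qc held a PU.1 core and a kappa B motif, the latter found in 7.25% of windows, and C3 held the C/EBP motif TTGCNNAA, found in 9.56%. The C5ar1 and Cfp windows matched none of the 5 motifs, of which the last was TTCNNNGAA, the GAS motif of STAT factors (7.02% of windows). The C5ar1 bases shown lie inside the gene as GENCODE places it (16246743 to 16259540, minus strand), past its GENCODE start. The bases before that start were mostly outside the window, so the lack of a match does not cover them. A match describes the letters and is not a measured binding site.

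C1q is built from 3 chains, A, B and C, encoded by neighbouring genes that span 18675 bases of chromosome 4 on the minus strand: C1qb (136880129 to 136886187), C1qc (136889804 to 136893065) and C1qa (136895917 to 136898803). They were the most abundant members in every group. In naïve retinas C1qb had a median RPKM of 4541 and a median rank of 7 among all genes listed, and it made up a median of 1.22% of the summed RPKM. C1qc and C1qa had median ranks of 30 and 40.5 there.

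The RPKM of C1qb ranged from 915 to 5949 in naïve retinas, from 2337 to 6752 at 4 h (median 5007), and from 2471 to 7873 at 2 weeks (median 6007). Its 18 h values were 7506, 5086, 5813, 458 and 5492.5. The groups overlapped, though 2 of 6 retinas at 4 h, 1 of 5 at 18 h and 4 of 7 at 2 weeks lay above all naïve retinas, and the lowest of all 28 values belonged to 18 h retina 4.

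C1qc ranged from 284 to 3381 with a median of 1512 in naïve retinas, from 494 to 2402 with a median of 1338 at 4 h, and from 471 to 3511 with a median of 2845 at 2 weeks. At 18 h it was 2295, 1540, 1911, 116 and 1461. C1qa ranged from 26.9 to 1842 with a median of 1064 in naïve retinas, from 144 to 1921 (median 1341) at 4 h, and from 122 to 2800 (median 1262) at 2 weeks, and its 18 h values were 2351, 1258, 1825, 64.3 and 1553. For C1qa 1, 1 and 3 retinas in time order lay above all naïve retinas, and for C1qc 1 retina did, at 2 weeks, while 18 h retina 4 lay below them.

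None of the 3 chains passed the limma test at any time point. The differences of C1qa from naïve were 0.98 (SE 0.91), 1.05 (SE 0.97) and 1.24 (SE 0.87) at the successive times, with adjusted p of 0.60, 0.63 and 1.00. Those of C1qb were 0.51, 0.17 and 0.63 (SE 0.46 to 0.51), and those of C1qc were 0.14, -0.16 and 0.66 (SE 0.55 to 0.61), all on the log2(RPKM + 1) scale. The standard errors leave changes of 2-fold in C1qa undetectable with these retinas, and the absence of a call does not show equal levels.

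The wide spread of C1q followed the number of genes detected per retina. In the 7 retinas with fewer than 9000 genes detected, C1qa had an RPKM of 26.9 to 230.2, C1qb of 458 to 2471 and C1qc of 116 to 669.6. In the other 21 retinas the ranges were 291 to 2800, 2695 to 7873 and 960.1 to 3511, above those of the 7. The share of all genes that separate in this way was not counted, so this is not shown to be particular to C1q. The summed rod markers were likewise 662 to 1056 in the 7 retinas and 1099 to 5485 in the 21. The microglial markers overlapped, at 2189 to 8101 and 3097 to 13428. The part of the number of genes detected in the C1q values was not tested.

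Without these 7 retinas, all from experiment 1, the differences of C1qa from naïve became -0.13, 0.37 and 0.13 in time order, those of C1qb -0.040, 0.17 and 0.050, and those of C1qc -0.45, -0.23 and 0.12, and none passed the test. The positive differences of C1qa in the full set thus became smaller at each time and changed sign at 4 h. Within the naïve group C1qa was 477 ± 591 (SD, n = 6) in experiment 1 and 1410.3 ± 308 (SD, n = 4) in experiment 2.

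**Figure D3:**
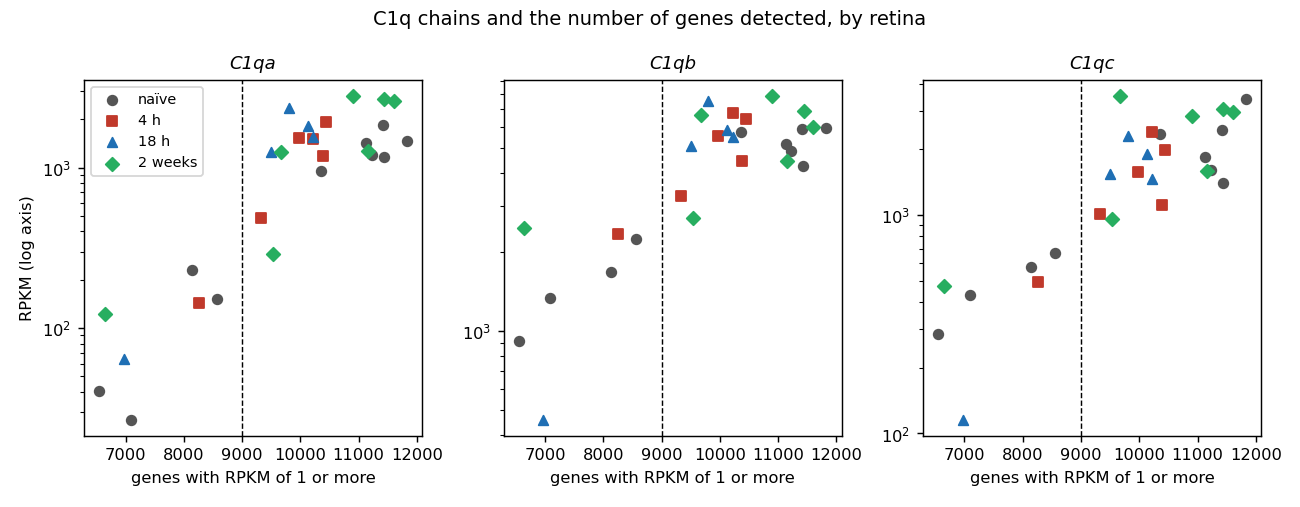
RPKM of C1qa, C1qb and C1qc on a log axis against the number of genes detected, with 1 point per retina and a colour and shape per group. The dashed line is at 9000 genes, and the 7 retinas to its left lie below the other 21 for all 3 chains, whichever group they came from. The share of all genes that do so was not counted.

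The chains did not keep one ratio across retinas. The ratio of C1qb to C1qa, from log2(RPKM + 1), had a median of 3.61 and a range of 2.31 to 9.23 in the 21 retinas, and a median of 16.1 and a range of 7.03 to 47.7 in the 7 retinas with few genes detected. The ratio of C1qc to C1qa was 1.22 (0.941 to 3.29) and 3.84 (1.79 to 15.5) in the same order. Over the 28 retinas C1qb and C1qc were each other's most alike gene (Pearson r 0.96), whereas the genes most like C1qa were Nrbp1 (0.97), Yif1b (0.96) and Sdhc (0.95), given as a description since depth and yield are shared.

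By exact two-sided permutation tests, 0 of 6 ratio comparisons between a time point and naïve passed after adjustment over the 6, and 1 had an unadjusted p under 0.05. This was C1qc to C1qa at 18 h, with a mean log2 ratio of 0.21 ± 0.38 (SD, n = 5) against 1.42 ± 1.22 (SD, n = 10) in naïve retinas (exact p = 0.020, adjusted p = 0.12). Without 18 h retina 4 the difference was -1.36 (adjusted p = 0.024), and without the 7 retinas it was -0.61 (adjusted p = 0.11).

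C4b, which encodes the C4 that C1-bound proteases cleave, was near the lower limit of detection. It lies on chromosome 17 (34728380 to 34743882). Its near-identical copy C4a, annotated as a processed transcript, was listed at no more than 0.646 RPKM, and reads can be divided between them. The RPKM of C4b ranged from 0 to 1.42 in naïve retinas (median 0.265), from 0 to 0.498 at 4 h (median 0.256) and from 0 to 1.02 at 2 weeks (median 0.277). At 18 h the values were 0.197, 0.759, 0.317, 0 and 2.59, of which the last, the highest of all, was the retina of experiment 2.

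The groups of C4b overlapped and it passed no test over all retinas, with differences of -0.20, 0.16 and -0.12 in time order (limma adjusted p of at least 0.73). Whether a change differed between the experiments was tested as an interaction in limma, which called 0 of the 8 members at any time, against 0.0988% of all genes at 4 h and 0% later on. C4b at 18 h was the only member with an unadjusted p under 0.05 in it (0.0028, adjusted p = 1.00). Within experiment 2 alone, where 18 h had 1 retina, the difference of C4b at 18 h was 1.60, and within experiment 1 alone it was -0.30. C4b reached an RPKM of 1 in 5 of the 28 retinas, the fewest that the filter allows. That 18 h retina was 1 of the 5, so the difference in experiment 2 is not independent of the filter.

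C3, the component on which all pathways converge, also lies on chromosome 17 (57203970 to 57228136). Its RPKM was listed at 0 in 6 of 10 naïve retinas, with a maximum of 1.21, and was 0.017 to 0.638 at 4 h and 0 to 0.839 at 2 weeks. At 18 h it was 0.622, 0.604, 1.15, 1.51 and 0.981, so that it was above 0.6 in all 5 retinas. Of these, 1 exceeded the highest naïve retina, and 9 of 10 naïve retinas were below the lowest 18 h value. The largest value corresponds to about 111 alignments on its longest transcript of 5136 bases. C3 was not tested because of the filter on low values.

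Cfb, the factor B gene, rose from values at or near 0. It lies 85 bases from C2 on chromosome 17 (34856374 to 34862518). In naïve retinas Cfb was listed at 0 in 8 of 10, and its only value above 1 was 1.67 in naïve retina 1. At 4 h it ranged from 0 to 2.84 with a median of 0.266.

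At 18 h the RPKM of Cfb was 3.61, 5.71, 5.81, 0 and 1.07, and at 2 weeks it was listed at 0 in 6 of 7 retinas and at 0.486 in the other. Hence 3 of 5 retinas at 18 h lay above all naïve retinas, and 18 h retina 4, with few genes detected, lay at the bottom. The highest value corresponds to about 185 alignments on a transcript of 2751 bases.

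The difference of Cfb from naïve was 1.61 at 18 h (SE 0.36, limma adjusted p = 0.0052) and 0.49 at 4 h (SE 0.34, adjusted p = 0.44). From 18 h to 2 weeks Cfb fell by 1.67 (SE 0.38, adjusted p = 0.011), which made it, with C3ar1, 1 of 2 members to fall there, where 1.55% of all genes fell. None of the 8 rose there, where 1.10% of all genes did, and both members with an unadjusted p under 0.05 were those that fell. Of the 13164 genes, 1833 had such a p. The call of the fall of Cfb was lost without 18 h retina 2 (limma adjusted p = 0.064) or 18 h retina 3 (0.062). Since Cfb met the filter only through the 18 h retinas, its fall is, like its rise, not independent of the filter. These are fold changes on log2(RPKM + 1), which understate the change of a gene this low.

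Between 18 h and 4 h no member passed in limma, 2 had an unadjusted p under 0.05 (C3ar1 and Cfb), and 5.42% of all genes passed. An unadjusted p under 0.05 was found for 2147 of the 13164 genes. Cfb stood at 1.12 (SE 0.40, adjusted p = 0.10) and C3ar1 at 0.91 (SE 0.36, adjusted p = 0.16). Cfb passed this comparison without 4 h retina 3 (limma adjusted p = 0.033), without 18 h retina 4 (0.0079), and without the 7 retinas with few genes detected (difference 1.67, adjusted p = 0.0055). It also passed in a linear model of untransformed RPKM (0.045), the only member to do so.

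Within experiment 1 the 18 h difference of Cfb from naïve was 1.69 (limma adjusted p = 0.11) and within experiment 2 it was 1.05 (0.14), so neither passed alone. The 2 retinas with the highest Cfb, 18 h retinas 2 and 3, also had the highest summed neutrophil markers, at 12.7 and 17.1, against 1.08, 0 and 0.885 in 18 h retinas 1, 4 and 5. Summed lymphocyte markers in 18 h retinas 1 to 5 were 10.7, 44.0, 24.3, 86.5 and 12.1, and monocyte markers were 18.7, 9.49, 10.5, 0.228 and 49.8. Monocyte sums were 0.130 to 28.5 in naïve retinas, 0.236 to 18.1 at 4 h and 1.98 to 28.4 at 2 weeks. Only 18 h retina 5 lay above these ranges. The part of these markers in the 18 h result was not tested. The genes most like Cfb over the 28 retinas were Tarm1 (Pearson r 0.85), Lcn2 (0.83) and Ifitm1 (0.80).

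Cfp, the properdin gene on chromosome X (20925454 to 20931555), was detected unevenly. Its RPKM ranged from 0 to 16.4 in naïve retinas (median 0.965), from 0 to 3.53 at 4 h (median 0.708) and from 0 to 16.0 at 2 weeks (median 3.06), and it was 6.92, 6.23, 7.27, 0 and 3.36 at 18 h. The naïve range covered all other groups, and the differences were -0.41, 0.82 and 0.39 (SE 0.62 to 0.69), none of which passed (limma adjusted p of at least 0.59). Cfp was listed at 0 in 6 of the 7 retinas with few genes detected and in 1 of the other 21.

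In naïve retinas the members fell into an order of level, which RPKM allows since it is per transcript length. Mean log2(RPKM + 1) was 11.6 for C1qb, 10.2 for C1qc, 8.74 for C1qa, 6.18 for C3ar1, 5.48 for C5ar1, 1.39 for Cfp, 0.50 for C4b, 0.22 for C3 and 0.14 for Cfb. By exact two-sided sign-flip permutation tests within the 10 retinas, adjusted over the 8 neighbouring pairs, C1qb exceeded C1qc and C1qc exceeded C1qa in 10 of 10 retinas (adjusted p = 0.0052 each, from the smallest p that these permutations can give, 0.0020). C1qa exceeded C3ar1 in 8 of 10 (exact test, adjusted p = 0.023), and C5ar1 exceeded Cfp in 10 of 10 (exact test, adjusted p = 0.0052). C3ar1 and C5ar1 did not differ beyond their spread (exact test, adjusted p = 0.083), nor did Cfp and C4b (0.083), C4b and C3 (0.32), or C3 and Cfb (0.63).

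This order changed for the receptors after LPS. The median rank of C3ar1 among all genes went from 721.5 in naïve retinas to 288, 187 and 499 in time order, and that of C5ar1 from 1022 to 134.5, 528 and 1181. C5ar1 thus stood above C3ar1 by median rank at 4 h and below it in the other groups. The 4 h retinas were divided. C5ar1 had the higher RPKM in retinas 1, 5 and 6 (812, 646 and 377 against 202, 145 and 184). It had the lower RPKM in retinas 2, 3 and 4 (71.3, 89.6 and 286 against 77.9, 104 and 315). The genes most like C5ar1 over the 28 retinas were Cebpb (Pearson r 0.94), Gpr84 (0.93) and Ier3 (0.92), and those most like C3ar1 were 4930430E12Rik (0.83), Fth1 (0.81) and Gm6977 (0.81). For Cfp the highest r was 0.76 (Gm12999) and for C4b 0.64 (B3glct).

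Of 46 other complement genes in a list written from general knowledge, 44 were matched by symbol and 17 passed the filter. At 4 h C5ar2 fell and none of the 17 rose in limma, where 3.68% of all genes rose and 4.39% fell. Of the 17, 4 had an unadjusted p under 0.05 in either direction, beside 2700 of the 13164 genes tested. At 18 h Serping1 rose and none fell, where 2.84% of all genes rose and 1.85% fell. Of the 17, 3 had an unadjusted p under 0.05, beside 2301 of the 13164. At 2 weeks 0 passed and 1, Cd55, had an unadjusted p under 0.05, beside 378 of the 13164. A linear model of untransformed RPKM called 0, 2 and 0 of the 17 in time order, in either direction. The median difference of the 17 was -0.24, -0.10 and 0.12 in time order.

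C5ar2 encodes the second receptor for C5a, and lies beside C5ar1 on chromosome 7 (16234585 to 16244154). Its RPKM was 1.74 to 25.8 in naïve retinas (median 3.88), and all 6 retinas at 4 h lay below the lowest of them, at 0.126 to 0.831. At 18 h it was 0.680, 0.129, 0.290, 5.45 and 0.465, and 4 of 5 retinas were below all naïve retinas. C5ar2 and C5ar1 thus moved in opposite directions at 4 h, when C5ar2 fell by 2.10 (SE 0.50, limma adjusted p = 0.0055).

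At 18 h the difference of C5ar2 was -1.76 (SE 0.54), just outside the test (adjusted p = 0.052, limma). It passed without 18 h retina 4 (-2.20, adjusted p = 0.014), without any one of naïve retinas 7 to 10 or of 2-week retinas 1 and 4 (adjusted p of 0.035 to 0.048), and without the 7 retinas with few genes detected (-1.45, adjusted p = 0.024). The 4 naïve retinas with few genes had the 4 highest naïve values of C5ar2, from 7.08 to 25.8, and without all 7 such retinas the fall at 4 h was 1.27 on the log2 scale (adjusted p = 0.023, limma).

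Serping1 encodes the C1 inhibitor, which blocks the C1 proteases. It was listed at 0 to 2.13 RPKM in naïve retinas and at 3.98, 5.26, 3.74, 0 and 3.16 at 18 h, so that 4 of 5 retinas exceeded all naïve retinas. Its difference was 1.40 (SE 0.40, limma adjusted p = 0.036). The call was lost without any one of naïve retinas 2, 3, 5, 6 or 10 (adjusted p of 0.054 to 0.058) or of 18 h retinas 1, 2, 3 or 5 (0.089 to 0.15), and it was kept without the 7 retinas with few genes detected (0.0096). Itgam, the alpha chain of complement receptor 3, passed between 18 h and 4 h only, where it was higher at 18 h by 1.48 (SE 0.37, limma adjusted p = 0.013). Its RPKM was 6.51 to 17.9 at 4 h and 21.0 to 57.7 at 18 h, with no overlap, and that call was lost without 18 h retina 4 (adjusted p = 0.051, limma).

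**Figure D4:**
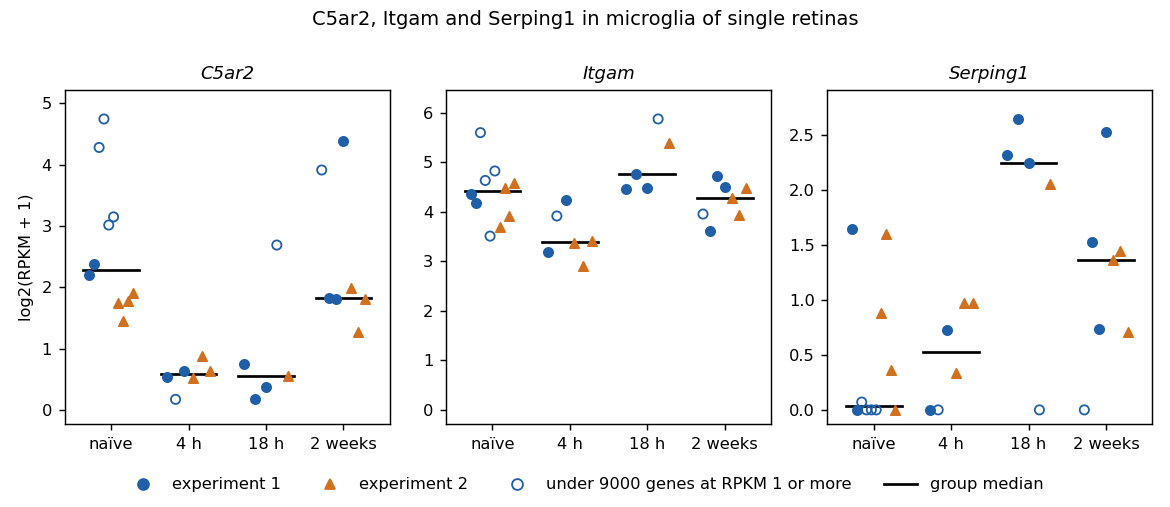
Log2(RPKM + 1) of C5ar2, Itgam and Serping1 by retina and group, with bars for group medians and open points for the 7 retinas with few genes detected. At 4 h all C5ar2 values lay below the naïve values, and at 18 h 4 of 5 Serping1 values lay above them.

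The initiating proteases of the cascade and most of the components they cleave were low in these microglia. C1rb, C1s1, C1s2, C4a, Masp2 and Hc, the C5 gene, were under an RPKM of 1 in all 28 retinas, and Masp1, C1ra and Cfi reached 1 in 1, 3 and 2 retinas, with highest values of 2.07, 6.86 and 1.81. C2 passed the filter with an RPKM of 0 to 2.72, and its differences of -0.45, -0.10 and 0.18 in time order did not pass (limma adjusted p of at least 0.50). C1ra and C1rb share sequence that the counting may divide. Cfd was not analysed here. By pathway, 1 of 6 classical, 1 of 8 lectin and 1 of 7 terminal genes passed the filter, against 6 of 8 receptors and 8 of 15 regulators.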

How the data were processed

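RNA of microglia from 28 single retinas was amplified with SMART-Seq v4 and sequenced. The authors trimmed the reads, aligned them to mm10 with STAR 2.5.3a, assigned reads to Ensembl transcripts by expectation maximisation in Partek, so that 1 read may count in part for several genes, and deposited 1 RPKM value per gene and retina. Exact zeros can be failed estimates. The deposited tables of the authors' own comparisons at 4 h and 18 h (p-values, fold changes) were not used.

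Values were transformed to log2(RPKM + 1), and genes that reached an RPKM of 1 in 5 or more retinas were kept. The 4 groups were fitted together in limma 3.58.1 (R 4.3.3, mean-variance trend, Benjamini-Hochberg adjustment over 13164 genes), after a check on simulated data. Permutation tests used scipy 1.17.1 in Python 3.11.15. Coordinates are from GENCODE M21 and promoter windows from RefSeq. Genes were named if members, if other complement genes passed a test or belonged to a fixed set (initiating proteases, C2, C4a, Hc, Cfd, Cfi, C5ar2, Itgam), or if among the 3 most like a member. A complement gene of the list is not reported here. The members and lists were chosen with earlier results of these data known. Alternatives varied the pseudocount, filter, covariates, samples, scaling and variance model. Leaving out the 7 retinas with fewer than 9000 genes was chosen after seeing the data.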

Additional observations from a re-analysis of the deposited data

Results flagged for a closer look

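Each member's retinas were checked within each group for a value set apart by its gap to the nearest other retina, on log2(RPKM + 1). Of 36 such groups, 6 held an outlying retina, and chance flags about 1 in 20 groups, or 1.8 of 36. That rate does not hold where nearly all values are at or near 0, as for Cfb, since any lone value above 0 is then flagged. The C1q flags also come from the same retina, so these counts cannot show an excess over chance.

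At 18 h, retina 4 stood below the other 4 for all 3 C1q chains, with an RPKM of 64.3 for C1qa, 458 for C1qb and 116 for C1qc. This retina also had the fewest genes detected in its group (6969). In the naïve group, retina 3 stood apart for C3, at 1.21, and retina 1 for Cfb, at 1.67. At 2 weeks, retina 5 stood apart for Cfb, at 0.486, as the only one not listed at 0.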

How the results depend on the processing

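C3ar1 at 18 h was called in all fits without 1 retina (log2 differences of 1.79 to 2.17), and so was C5ar1 at 4 h (2.27 to 2.97). No call of a member changed direction. Differences that reversed had passed no test, and causes were not tested except where a setting left out retinas or genes.

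Of the 2 members called at 4 h, 1 remained with the replicate block, with untransformed RPKM and with equal summed RPKM, and 0 in experiment 1 alone. Of the 2 at 18 h, 1 remained with a pseudocount of 10, with a filter at an RPKM of 5 and in experiment 1 alone. In experiment 2 alone 18 h had 1 retina, and the differences from naïve were 1.27 for C3ar1, 1.05 for Cfb and 1.60 for C4b. Counts for experiment 2 that include 18 h, here and below, rest on that 1 retina. Between 18 h and 4 h, the count of members went from 0 to 1 in experiment 2 alone, with untransformed RPKM and without the 7 retinas with few genes. Of the 2 between 2 weeks and 18 h, 1 remained with a pseudocount of 10, a filter at 5 and only the groups compared, and 0 in experiment 1 alone. In experiment 2 alone neither passed and 1 other member did. Of the other complement genes, 1 was called at 4 h, against 0 with a pseudocount of 10 and with untransformed RPKM, 2 with the replicate block and 3 with equal summed RPKM. At 18 h 1 was called, against 0 with a pseudocount of 10, no filter, only the groups compared and either experiment alone, 2 with a filter at 5, the replicate block, untransformed RPKM, no mean-variance trend and without the 7 retinas, and 3 with experiment as a covariate.

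With 1 retina left out, the counts ranged from 1 to 2 members at 4 h, 0 to 1 between 18 h and 4 h and 1 to 2 between 2 weeks and 18 h, from 0 to 3 other complement genes at 18 h (1 in each fit at 4 h), and from 0 to 1 C1q ratios. The differences ranged from -0.078 to 0.42 for C1qc at 4 h, from -0.10 to 0.91 for C1qb at 18 h, from -0.45 to 0.63 for C1qc at 18 h, and from -0.14 to 0.082 for Cfb at 2 weeks. C1qc at 18 h also reversed with experiment as a covariate (0.0031), the replicate block (0.22) and experiment 1 alone (0.15), and C4b at 18 h in experiment 1 alone (-0.30). Experiment 2 alone reversed C1qc (-0.25) and C4b (0.049) at 4 h, C3ar1 (-0.058) and Cfb (0.19) at 2 weeks, and C3ar1 between 18 h and 4 h (-0.012). C1qc at 4 h reversed with untransformed RPKM (-0.073), equal summed RPKM (-0.14) and quantile normalisation (-0.11), C1qb at 18 h with the latter 2 (-0.16 and -0.70), and C1qb at 4 h with quantile normalisation (-0.27). Without the 7 retinas, C1qa (-0.13), C1qb (-0.040) and C1qc (-0.45) at 4 h, C5ar1 at 2 weeks (-0.22) and the C1qb to C1qa ratio at 4 h (0.086) reversed. C4b could not be fitted there, as it missed the filter.

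Equal summed RPKM moved the median of all genes from -0.11 to -0.28 at 4 h and from -0.08 to -0.26 at 18 h. Retinas of different groups that share a replicate number deviated together little more than others (median r of 0.035 against 0.0054, with 15 of 34 against 93 of 253 pairs over 0.1). The numbers were not taken as pairs, and the replicate block left C3ar1 at 4 h with a limma adjusted p of 0.051. This check set retinas of different groups side by side, so it cannot show whether retinas within a group share a mouse. Left and right retinas within a group were not checked for this. Values near an RPKM of 0.1 rest on few alignments.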
